A study of Mus musculus with 6 samples.

Results

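The 10 genes described here make lipid mediators from arachidonic acid or, in the case of Pla2g7, break one down. They are Ptgs1, Ptgs2, Ptges, Hpgds and Tbxas1 of prostanoid synthesis, Alox5, Alox5ap, Lta4h and Ltc4s of leukotriene synthesis, and Pla2g7. They were chosen by name, as rows of the gene table with those symbols, and all 10 were found among 24054 genes. All were measured by RNA sequencing of mouse bone marrow-derived macrophages in 6 libraries. 2 libraries came from Kindlin3-integrin mutant macrophages given oxidised low-density lipoprotein (oxLDL), a modified lipoprotein that loads macrophages with lipid, and 2 from mutant macrophages left untreated. Wild type gave 1 oxLDL and 1 untreated library. Mutant and wild-type mice were of the C57BL/6 background, and all marrow cells were kept for 7 days with L929-conditioned medium, a source of the growth factor M-CSF that drives marrow cells to become macrophages. The oxLDL was given at 50 µg/ml for 24 hours. Kindlin-3, the product of Fermt3, binds integrin tails in blood cells and switches integrins on. The labels name neither the amino acids changed in the mutant nor the animal or culture behind each replicate, and a p-value here covers the spread between libraries, which may be technical.

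Cyclooxygenases, encoded by Ptgs1 and Ptgs2, turn arachidonic acid into a common prostaglandin precursor, and a terminal synthase then sets which prostanoid a cell releases. The lipoxygenase branch starts with Alox5, whose enzyme needs the membrane protein encoded by Alox5ap, and divides into the neutrophil attractant made by the Lta4h product and the cysteinyl leukotrienes made by the Ltc4s product. Macrophages use both branches, and Pla2g7 encodes a secreted phospholipase, known as lipoprotein-associated phospholipase A2, that hydrolyses platelet-activating factor (PAF) and oxidised phospholipids such as those on oxLDL.

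Promoters are shown for the 6 genes whose RNA changed with oxLDL, since they moved in opposite directions. The 3 that fell are Ptgs1 at chr2:36230176-36230475 on the plus strand, Ptgs2 at chr1:150099781-150100080 on the plus strand and Alox5 at chr6:116461129-116461428 on the minus strand. The 3 that rose are Lta4h at chr10:93453146-93453445 on the plus strand, Tbxas1 at chr6:38918736-38919035 on the plus strand and Pla2g7 at chr17:43568201-43568500 on the plus strand. Sequences and positions are those of RefSeq on mouse build GRCm38.p6, from 250 bases before to 50 bases after the gene's start, read 5′ to 3′ on the gene's strand. Capitals mark matches, on either strand, to the core GAGGAA bound by the myeloid factor PU.1, to TGACNNNGC, the core of the antioxidant response element bound by NRF2, to the AP-1 site TGANTCA, to TATAAA, or to TGACGTCA, the cyclic AMP response element. In Tbxas1 the capitals after the AP-1 match join a PU.1 core and a pair of overlapping TATAAA matches, which overlap no PU.1 base.
Ptgs1: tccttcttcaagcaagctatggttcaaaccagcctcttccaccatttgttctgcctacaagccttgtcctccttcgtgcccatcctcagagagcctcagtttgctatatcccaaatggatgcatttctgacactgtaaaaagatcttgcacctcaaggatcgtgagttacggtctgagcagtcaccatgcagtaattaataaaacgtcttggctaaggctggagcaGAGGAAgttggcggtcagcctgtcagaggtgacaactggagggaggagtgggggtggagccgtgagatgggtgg
Ptgs2: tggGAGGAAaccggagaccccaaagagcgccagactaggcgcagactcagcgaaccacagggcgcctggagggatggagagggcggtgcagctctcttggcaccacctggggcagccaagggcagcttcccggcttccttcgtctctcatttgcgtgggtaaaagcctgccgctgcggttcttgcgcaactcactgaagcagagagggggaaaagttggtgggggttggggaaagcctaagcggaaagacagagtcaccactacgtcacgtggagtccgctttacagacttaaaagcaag
Alox5: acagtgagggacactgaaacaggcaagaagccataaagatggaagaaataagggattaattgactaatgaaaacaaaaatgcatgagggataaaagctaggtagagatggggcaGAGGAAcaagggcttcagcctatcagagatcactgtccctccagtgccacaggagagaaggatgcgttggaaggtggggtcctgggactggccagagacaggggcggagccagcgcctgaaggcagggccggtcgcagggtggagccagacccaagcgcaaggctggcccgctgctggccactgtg
Lta4h: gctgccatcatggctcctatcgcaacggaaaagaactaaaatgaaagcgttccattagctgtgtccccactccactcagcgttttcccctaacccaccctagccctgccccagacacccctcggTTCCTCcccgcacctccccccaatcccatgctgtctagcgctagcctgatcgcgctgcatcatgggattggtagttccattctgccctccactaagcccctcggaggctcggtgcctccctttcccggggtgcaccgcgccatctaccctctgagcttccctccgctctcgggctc
Tbxas1: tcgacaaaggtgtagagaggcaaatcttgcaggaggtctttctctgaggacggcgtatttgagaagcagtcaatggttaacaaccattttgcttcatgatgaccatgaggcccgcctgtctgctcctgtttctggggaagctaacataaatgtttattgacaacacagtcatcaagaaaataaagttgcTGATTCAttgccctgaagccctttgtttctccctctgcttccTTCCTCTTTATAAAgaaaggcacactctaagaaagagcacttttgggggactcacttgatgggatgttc
Pla2g7: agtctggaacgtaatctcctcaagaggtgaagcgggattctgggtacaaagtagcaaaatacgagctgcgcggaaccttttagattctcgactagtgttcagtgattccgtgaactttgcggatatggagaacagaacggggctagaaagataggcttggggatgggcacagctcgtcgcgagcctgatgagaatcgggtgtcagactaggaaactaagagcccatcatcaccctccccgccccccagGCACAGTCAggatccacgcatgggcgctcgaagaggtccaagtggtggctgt

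A promoter entry was matched for 9 of the 10 genes. The PU.1 core was present in 8 of those 9, in every one but Pla2g7, and in 28.3% of 32851 mouse promoters of the same length. In Ptgs1 it lay 24 to 19 bases before the start. TGACNNNGC was found in Pla2g7 alone, from 2 bases before the start to base 7 of the transcript, and in 12.4% of all promoters. TGANTCA and TATAAA were found in Tbxas1 alone among the 9, against 7.81% and 13.6% of all promoters. TGACGTCA was in none of the 9 and in 1.79% of all promoters. These are matches of letters in a window and say nothing of which factor was bound.

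Reads assigned to genes ranged from 11281692 to 24273551 per library. The macrophage label was checked with 8 markers, all above 1 CPM (reads of a gene per 1000000 reads of the library) in every library. Their summed level was 19053, 14227 and 9725 CPM with oxLDL, against 29329, 23110 and 18068 CPM untreated, in the order mutant 1, mutant 2 and wild type. The markers did not move as one: Emr1, Csf1r, Fcgr1 and Cd14 were lower in every oxLDL library than in every untreated one, Cd68 and Mertk were higher, and Lyz2 overlapped. Cd68 was at 2135, 1884 and 1801 CPM with oxLDL, against 1336, 965 and 858 CPM untreated. In bulk RNA, fewer cells of a type and less RNA per cell cannot be told apart. Fermt3 RNA was at 146 and 153 CPM in oxLDL-treated mutant cells and 241 and 249 CPM in mutant untreated libraries, against 188 and 403 CPM in wild type with oxLDL and untreated. All 10 markers of pancreatic cells were found in 3 libraries, at summed levels of 171, 136 and 231 CPM in mutant oxLDL 1, mutant oxLDL 2 and wild type untreated, and at no more than 0.0707 CPM in the other 3. That pattern is the same as the difference of the oxLDL response between genotypes, so the 2 cannot be told apart. For oxLDL within either genotype, and for genotype within either treatment, libraries with these transcripts also stand against libraries without them, so their part in those values cannot be told apart either. No comparison could be fitted without those 3 libraries.

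**Figure D1:**
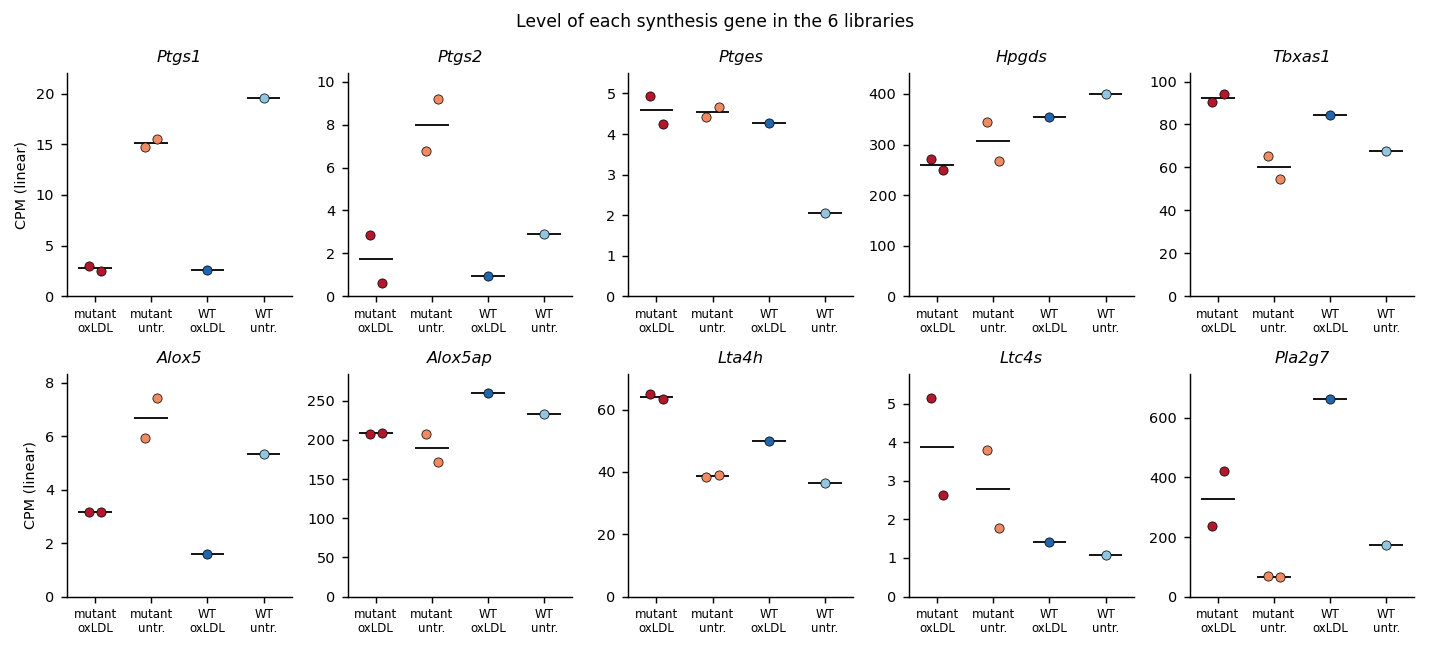
Level of each of the 10 genes in CPM (linear axis from 0) in each group, with a point per library and a line at the group mean. Ptgs1 lay between 2.53 and 2.96 CPM in the 3 oxLDL libraries and between 14.7 and 19.5 CPM in the 3 untreated ones, while Pla2g7 lay between 236 and 664 CPM in the oxLDL libraries and between 64.0 and 172 CPM in the untreated ones.

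Levels between genes were compared per kilobase of the longest coding transcript. Alox5ap was the most abundant of the 10, with a median over the 6 libraries of 167 CPM per kilobase and a range of 137 to 207. Pla2g7 followed with a median of 97.2 and Hpgds with 88.5 CPM per kilobase. The range of Pla2g7, 30.5 to 316, spanned those of both others, while Hpgds, at 71.8 to 115, stayed below Alox5ap in every library. Tbxas1 had a median of 38.1 and Lta4h of 21.9 CPM per kilobase, with ranges that overlapped. The other 5 were far lower, from Ptgs1 at 3.09 and Ltc4s at 3.07 through Alox5 at 1.5 and Ptges at 1.19 to Ptgs2 at 0.646 CPM per kilobase. Each overlapped its neighbour in that order, while the lowest Ltc4s value, 1.5, lay above the highest of Ptges, 1.36 CPM per kilobase. Within the leukotriene branch the RNA of the helper protein Alox5ap was thus at least 137 CPM per kilobase in every library, whereas that of the enzyme it serves, Alox5, was at most 2.63 CPM per kilobase.

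With oxLDL, 3 of the 10 genes rose and 3 fell across both genotypes, and the 2 groups of libraries did not overlap for any of those 6. Ptgs1, Ptgs2 and Alox5, which encode the enzymes that commit arachidonic acid to the prostanoid or the leukotriene branch, fell, while Lta4h, Tbxas1 and Pla2g7 rose. The comparison was made with edgeR's quasi-likelihood test in a model of genotype and treatment, at a false discovery rate under 0.05. That rule called 19.1% of 12689 tested genes higher and 21.4% lower, so a count of 3 in each direction among 10 is not far from the background. Libraries did not overlap, with oxLDL higher, for 24.5% of all tested genes, and with oxLDL lower for 23.3%. The median log2 fold change was 0.25 over the 10 genes and 0.01 over all tested genes. In the mutant alone, with 2 libraries per arm, the same 6 genes passed in the same directions, where 16.5% of all genes were called higher and 19.1% lower. The 2 comparisons share their 4 mutant libraries. All 6 also passed as the mean of the oxLDL changes from a model of 4 group means. Pancreatic transcripts were in mutant oxLDL 1, mutant oxLDL 2 and wild type untreated, so they were unevenly spread over the treatments here too. No model held their amount, and their part in these changes was not tested.

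Ptgs1 encodes cyclooxygenase-1, the form most cells carry at rest. It was at 2.96 and 2.53 CPM in oxLDL-treated mutant cells and 2.56 CPM in oxLDL-treated wild-type cells, against 14.7 and 15.6 CPM in untreated mutant cells and 19.5 CPM in untreated wild-type cells. The 3 oxLDL libraries lay close together and far below the untreated ones in both genotypes. Across genotypes Ptgs1 fell by 2.61 ± 0.17 on the log2 scale (SE; adjusted p = 0.000154), which is 6.11-fold lower with oxLDL. In the mutant alone the log2 fold change was -2.46 ± 0.18 (SE; adjusted p = 0.000541). Its fall was the most precise of the 10 changes relative to its size, and every alternative fit kept it, with log2 fold changes of -2.73 to -2.46 when libraries were left out in turn.

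Ptgs2, the inducible cyclooxygenase that rises in activated macrophages, was low in all libraries. Its levels with oxLDL were 2.84 and 0.594 CPM in the mutant and 0.959 CPM in wild type, against 6.79 and 9.20 CPM untreated in the mutant and 2.91 CPM in wild type. The groups did not overlap, but mutant oxLDL 1 lay just under wild type untreated, and the mutant oxLDL replicates stood further apart, as a ratio, than for any other of the 10 genes. The fall across genotypes was 4.08-fold, log2 -2.03 ± 0.53 (SE; adjusted p = 0.0237), and in the mutant -2.19 ± 0.62 (SE; adjusted p = 0.0399). It rested on few reads and on single libraries. The call across genotypes was lost without mutant untreated 1 (adjusted p = 0.0547) or mutant untreated 2 (adjusted p = 0.0980), and that in the mutant was lost likewise, with adjusted p of 0.0856 and 0.164. In the mutant the log2 fold change was -3.74 without mutant oxLDL 1 and -1.49 without mutant oxLDL 2.

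Of the 3 terminal prostanoid synthases 1 rose and none fell. Tbxas1, thromboxane synthase, reached 90.7 and 94.2 CPM in oxLDL-treated mutant cells and 84.3 CPM in oxLDL-treated wild-type cells, against 65.4 and 54.6 CPM in untreated mutant cells and 67.4 CPM in untreated wild-type cells. All oxLDL libraries were above all untreated ones, by 1.44-fold across genotypes (log2 fold change 0.52 ± 0.11, SE; adjusted p = 0.0104). Hpgds, the hematopoietic synthase of prostaglandin D2, was at 271, 250 and 354 CPM with oxLDL, against 344, 268 and 401 CPM untreated, in the order mutant 1, mutant 2 and wild type. Those ranges overlapped and Hpgds did not pass, with a change of -0.21 ± 0.11 on the log2 scale (SE; adjusted p = 0.184). Ptges, the inducible synthase of prostaglandin E2, had 4.95 and 4.26 CPM in oxLDL-treated mutant cells and 4.28 CPM in oxLDL-treated wild-type cells, against 4.41 and 4.67 CPM in untreated mutant cells and 2.05 CPM in untreated wild-type cells. Only the wild type untreated library stood apart, and the change across genotypes was 0.35 ± 0.27 on the log2 scale (SE; adjusted p = 0.347).

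**Figure D2:**
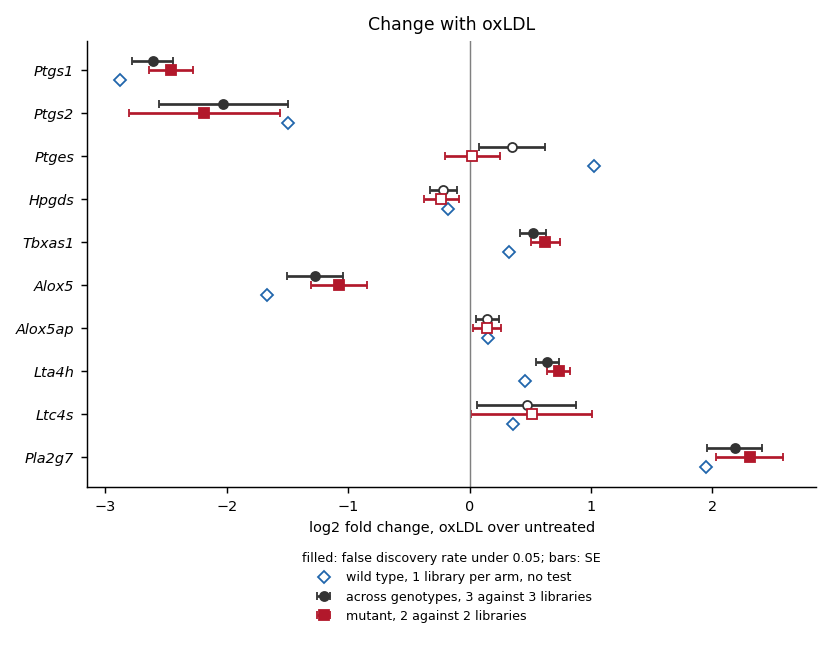
Log2 fold change of each of the 10 genes, oxLDL over untreated, with SE bars, across genotypes (circles), in the mutant (squares) and in wild type (diamonds, 1 library per arm and no test). Filled symbols passed a false discovery rate of 0.05: Ptgs1, Ptgs2 and Alox5 lie left of 0 and Tbxas1, Lta4h and Pla2g7 right of it.

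In the leukotriene branch, Alox5 had 3.16 and 3.17 CPM in oxLDL-treated mutant cells and 1.60 CPM in oxLDL-treated wild-type cells, against 5.91 and 7.43 CPM in untreated mutant cells and 5.32 CPM in untreated wild-type cells. The oxLDL libraries were all lower, and the 2 mutant oxLDL replicates were nearly equal. Alox5 fell 2.42-fold across genotypes (log2 fold change -1.27 ± 0.23, SE; adjusted p = 0.00564). In the mutant alone the log2 fold change was -1.08 ± 0.23 (SE; adjusted p = 0.0161), a call that was lost without mutant untreated 2 (adjusted p = 0.107) and with DESeq2 (adjusted p = 0.0524). Alox5ap, which hands arachidonic acid to the Alox5 enzyme, was at 208, 209 and 259 CPM with oxLDL, against 207, 171 and 233 CPM untreated, in the order mutant 1, mutant 2 and wild type. The ranges overlapped, with a change of 0.14 ± 0.09 on the log2 scale (SE; adjusted p = 0.270).

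Lta4h, the hydrolase that makes leukotriene B4, was at 64.9 and 63.5 CPM in oxLDL-treated mutant cells and 50.0 CPM in oxLDL-treated wild-type cells, against 38.3 and 39.0 CPM in untreated mutant cells and 36.4 CPM in untreated wild-type cells. The untreated libraries were within a narrow range and all oxLDL libraries exceeded them. Lta4h rose 1.56-fold across genotypes (log2 fold change 0.64 ± 0.09, SE; adjusted p = 0.00264) and by 0.73 ± 0.09 on the log2 scale in the mutant (SE; adjusted p = 0.00284). Ltc4s, the synthase of leukotriene C4, was low and varied between replicates. Its levels were 5.15, 2.62 and 1.41 CPM with oxLDL, against 3.79, 1.77 and 1.07 CPM untreated, in the order mutant 1, mutant 2 and wild type. The mutant replicates stood apart in both treatments, the ranges overlapped, and its change of 0.47 ± 0.41 on the log2 scale did not pass (SE; adjusted p = 0.399).

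Pla2g7 showed the largest increase of the 10. It was at 236 and 422 CPM in oxLDL-treated mutant cells and 664 CPM in oxLDL-treated wild-type cells, against 68.9 and 64.0 CPM in untreated mutant cells and 172 CPM in untreated wild-type cells. Every oxLDL library was above every untreated one, although the mutant oxLDL replicates were apart and the lower of them was nearer to wild type untreated than to its own replicate. Pla2g7 rose 4.54-fold across genotypes (log2 fold change 2.18 ± 0.23, SE; adjusted p = 0.000755) and 4.95-fold in the mutant (log2 fold change 2.31 ± 0.28, SE; adjusted p = 0.00242). Pla2g7 exceeded Alox5ap per kilobase in mutant oxLDL 2, at 201 and 167 CPM per kilobase, and in wild type oxLDL, at 316 and 207, and was below it in the other 4 libraries.

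Markers of other cells that carry these genes were read beside these results. Mast cells make much Hpgds, Ltc4s and Alox5 RNA. The 10 mast cell markers summed to 69.7, 24.1 and 6.65 CPM with oxLDL, against 5.38, 3.11 and 0.511 CPM untreated, in the order mutant 1, mutant 2 and wild type. Nearly all of this was Kit, at 69.6, 24.1 and 6.58 CPM against 4.94, 2.62 and 0.205 CPM, while Mcpt4, Fcer1a and Mrgprb2 had 0 counts in all libraries and Cpa3 was at most 0.0811 CPM. The 9 neutrophil markers measured summed to 6.29 to 13.9 CPM in 5 libraries and to 47.8 CPM in wild type untreated, the highest being Ngp at 12.5 CPM. The 7 platelet lineage markers, of interest for Ptgs1 and Tbxas1, summed to 15.5 to 31.3 CPM, chiefly Pf4, with Gp5 at 0 counts throughout. The part of RNA with Kit, neutrophil or platelet markers in these results was not tested.

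In wild type there was 1 library per treatment, so change was described by size alone and not tested in the main analysis. Of 7 of the 10 genes that reached 5 CPM in at least 1 of the 2 libraries, Pla2g7 was over 2-fold higher with oxLDL and Ptgs1 and Alox5 over 2-fold lower. That size was passed upward by 7.92% and downward by 11.7% of 9840 genes at that level. Alox5, at 5.32 CPM in wild type untreated, was near the 5 CPM line. With scaling by library size alone, 2 of the 10 genes and not 3 met the rule. The log2 fold changes were 1.95 for Pla2g7, -2.88 for Ptgs1 and -1.67 for Alox5. Lta4h was at 0.46 and Tbxas1 at 0.32, short of the size used. Ltc4s, Ptgs2 and Ptges stayed below 5 CPM in both libraries. A fit that lets the wild type libraries vary like the mutant pairs gave similar changes. They were 1.95 for Pla2g7, -2.93 for Ptgs1 and -1.73 for Alox5 on the log2 scale. That fit compares the same wild type libraries, so it adds no separate support.

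Between the genotypes, Pla2g7 alone of the 10 genes passed, at lower levels in the mutant. Mutant libraries had 236 and 422 CPM with oxLDL, against 664 CPM in wild type, and 68.9 and 64.0 CPM untreated, against 172 CPM in wild type. Within each treatment both mutant libraries lay below the wild type one, though in untreated cells the genotypes were apart for all 10 genes. Across treatments Pla2g7 was 2.29-fold lower in the mutant (log2 fold change -1.19 ± 0.22, SE; adjusted p = 0.0446). In this comparison 1.51% of tested genes were called lower and 2.54% higher. The call was near the threshold. It was lost when mutant oxLDL 1 (adjusted p = 0.0515), mutant untreated 1 (0.121), mutant untreated 2 (0.152), wild type oxLDL (0.0583) or wild type untreated (0.227) was left out, and kept without mutant oxLDL 2 (adjusted p = 0.00211).

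**Figure D3:**
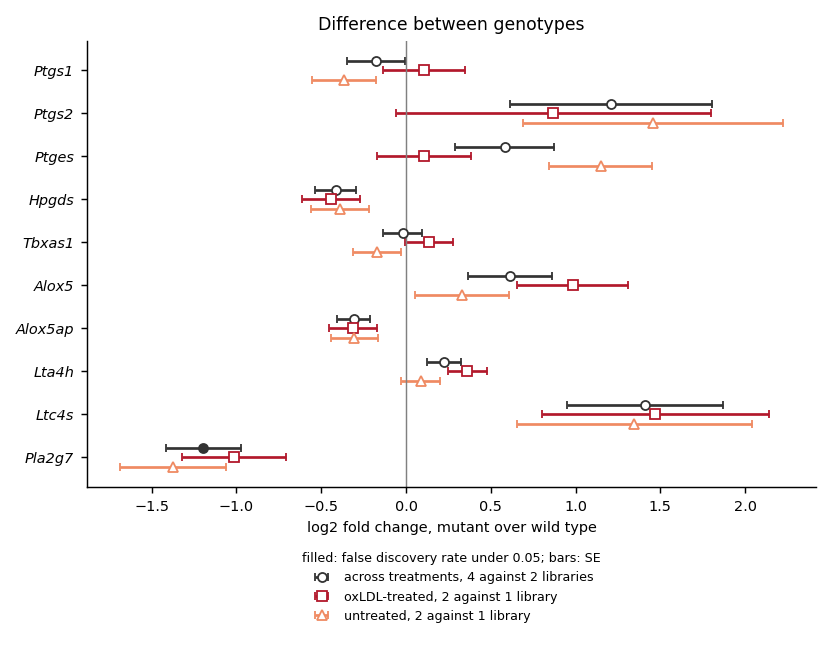
Log2 fold change of each of the 10 genes, mutant over wild type, with SE bars, across treatments (circles), with oxLDL (squares) and untreated (triangles). The circle of Pla2g7, at -1.19, is the only filled symbol, a false discovery rate under 0.05, and Ltc4s lies at 1.41 with wide bars.

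Of the other 9 genes, 4 had an unadjusted p under 0.05 across treatments, as had 24.4% of all tested genes, and none passed after adjustment. Ltc4s was at 5.15 and 2.62 CPM in oxLDL-treated mutant cells against 1.41 CPM in oxLDL-treated wild-type cells, and at 3.79 and 1.77 CPM in untreated mutant cells against 1.07 CPM in untreated wild-type cells. All mutant libraries were above both wild type ones, and the log2 fold change of 1.41 ± 0.46 (SE) had an adjusted p of 0.130. Alox5ap ran the other way, at 171 to 209 CPM in the 4 mutant libraries against 233 and 259 CPM in wild type (log2 fold change -0.31 ± 0.10, SE; adjusted p = 0.126). Hpgds ranged from 250 to 344 CPM in the mutant against 354 and 401 CPM in wild type, also without overlap, with a change of -0.42 ± 0.12 on the log2 scale (SE; adjusted p = 0.104) that passed with DESeq2 (adjusted p = 0.0312). Alox5 differed by 0.61 ± 0.25 on the log2 scale (SE; adjusted p = 0.195), and within each treatment both mutant libraries lay above the wild type one. Untreated, the lone wild type library lay outside the range of the mutant pair for all 10 genes, yet edgeR called 0 of them. How many of all tested genes were apart between genotypes was not counted. With a lone library on one side, being apart is therefore no result about the 10 genes. Ptgs2, not among those 4, differed by 1.21 ± 0.59 on the log2 scale (SE; adjusted p = 0.270) and in untreated cells by 1.46 ± 0.77 (SE).

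In untreated cells, with 2 mutant libraries against 1 wild type library, edgeR called 0 of the 10 genes, where 7.06% of all tested genes were called. 2 had an unadjusted p under 0.05, as had 27.1% of all genes. DESeq2 and limma each called 1, Pla2g7, beside 1301 and 1143 of all genes. Its log2 fold change was -1.37 ± 0.31 (SE; adjusted p = 0.0576). Ptges was the other, at 4.41 and 4.67 CPM in untreated mutant cells against 2.05 CPM in untreated wild-type cells (log2 fold change 1.15 ± 0.30, SE; adjusted p = 0.0762). In oxLDL-treated cells edgeR again called 0 of the 10, where 0.481% of all genes were called, with 4 at an unadjusted p under 0.05, as were 14.3% of all genes. DESeq2 called 1, Pla2g7, and limma 0, beside 393 and 99 of all genes. The difference of the oxLDL response between genotypes, called for 0.489% of all genes, passed for 0 of the 10 with edgeR, DESeq2 and limma. 1 had an unadjusted p under 0.05, as had 11% of all genes. It was Ptges, with a difference of -1.04 ± 0.41 on the log2 scale, the oxLDL change in the mutant minus that in wild type (SE; adjusted p = 0.435).

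The wider pathway was described with 77 further genes of eicosanoid and PAF metabolism, of which 56 were tested. Across genotypes, 14 of the 56 were higher with oxLDL and 12 lower, with a median log2 fold change of 0.08, beside 19.1% and 21.4% of all tested genes. That is 26 genes, and 20 to 27 when libraries were left out in turn. Fatty acid release comes before the synthesis genes. Among 13 tested phospholipases and PAF hydrolases 4 rose and 1 fell. Pla2g4a, the cytosolic phospholipase that frees arachidonic acid and a gene named after its values were seen, was at 70.0, 48.1 and 74.9 CPM with oxLDL, against 36.2, 41.0 and 44.1 CPM untreated, in the order mutant 1, mutant 2 and wild type. It rose by 0.66 ± 0.15 on the log2 scale (SE; adjusted p = 0.0152), a call lost without mutant untreated 1 (adjusted p = 0.0563), wild type oxLDL (0.0548) or wild type untreated (0.0526). Pafah2, an intracellular PAF hydrolase related to the Pla2g7 product, rose with a change of 0.87 ± 0.11 on the log2 scale (SE; adjusted p = 0.00183), and Pla2g12a and Pafah1b3 rose by 1.33 and 0.96 on that scale. Pafah2 had 37.5 and 32.3 CPM in oxLDL-treated mutant cells and 23.1 CPM in oxLDL-treated wild-type cells, against 20.7 and 17.5 CPM in untreated mutant cells and 12.7 CPM in untreated wild-type cells. Of 8 genes of re-esterification and lipase release 2 rose and 3 fell. Lpcat2, which makes PAF in activated macrophages, was at 21.8, 23.6 and 38.5 CPM with oxLDL, against 76.2, 90.1 and 135 CPM untreated, in the order mutant 1, mutant 2 and wild type. It fell by 1.85 ± 0.10 on the log2 scale (SE; adjusted p = 0.000107), and its relative Lpcat1 by 1.69. Of the other PAF hydrolase genes, Pafah1b3 rose, as given above, while the levels of Pafah1b1 and Pafah1b2 overlapped between treatments. Whether the fall of Lpcat2 and the rise of Pla2g7 and Pafah2 are linked was not tested, and PAF itself was not measured.

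Lpcat2 also differed between genotypes, with a change of -0.73 ± 0.10 on the log2 scale, mutant over wild type (SE; adjusted p = 0.0275). Mgll, a lipase that frees arachidonic acid from an endocannabinoid, was at 31.5 and 13.6 CPM in oxLDL-treated mutant cells against 1.09 CPM in oxLDL-treated wild-type cells, and at 4.32 and 4.67 CPM in untreated mutant cells against 0.409 CPM in untreated wild-type cells. Each mutant library was above both wild type ones. Mgll was higher in the mutant by 4.04 ± 0.51 on the log2 scale (SE; adjusted p = 0.0219) and rose with oxLDL by 2.19 ± 0.39 (SE; adjusted p = 0.0055). In all, 3 of the 56 genes were higher and 3 lower in the mutant, beside 2.54% and 1.51% of all tested genes. The Lpcat2 call was lost without mutant oxLDL 1 (adjusted p = 0.055), mutant untreated 1 (0.0826), mutant untreated 2 (0.0883) or wild type untreated (0.104). The Mgll genotype call was lost without mutant untreated 1 (adjusted p = 0.0663), mutant untreated 2 (0.104), wild type oxLDL (0.0606) or wild type untreated (0.0725). The count of 6 was 0 without mutant untreated 1 or 2, 1 without wild type untreated and 4 without mutant oxLDL 1.

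Of 10 tested receptors for these mediators 2 rose, Ptger2 and Ptgir, and 4 fell, Ptger4, Cysltr1, Fpr2 and Cmklr1, the last lost without mutant untreated 2 (adjusted p = 0.0829). Over all tested genes 19.1% were called higher with oxLDL and 21.4% lower. Both prostaglandin receptors that signal through cyclic AMP and bind prostaglandin E2 changed, in opposite directions. Ptger4 was at 13.4, 10.1 and 14.4 CPM with oxLDL, against 102, 99.7 and 77.8 CPM untreated, in the order mutant 1, mutant 2 and wild type, and fell by 2.88 ± 0.18 on the log2 scale (SE; adjusted p = 0.00015). Ptger2 was at 9.85, 13.8 and 26.7 CPM with oxLDL, against 2.12, 2.90 and 2.25 CPM untreated, and rose by 2.70 ± 0.33 (SE; adjusted p = 0.0014). For both, the oxLDL and untreated libraries were far apart in each genotype. Ptgir, the prostacyclin receptor, was at 51.5, 54.1 and 44.9 CPM with oxLDL, against 12.8, 11 and 4.55 CPM untreated, and rose by 2.51 ± 0.24 (SE; adjusted p = 0.000561). Ptgis, the prostacyclin synthase, had 0 counts in all 6 libraries.

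**Figure D4:**
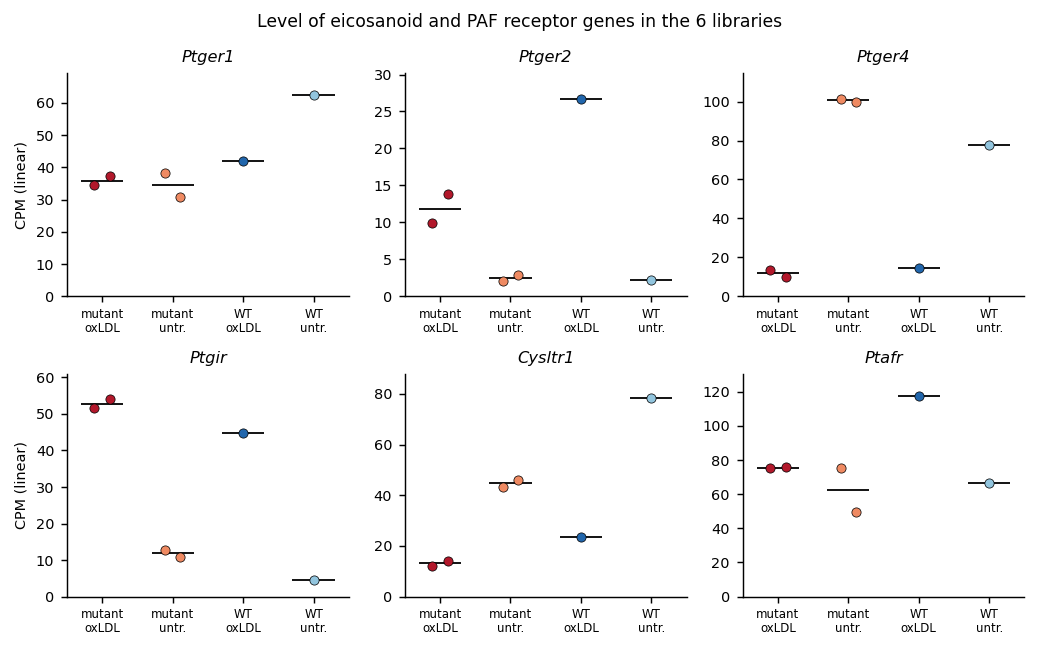
Level in CPM (linear axis from 0) of 6 receptor genes in each group, with a point per library and a line at the group mean. Ptger4 and Cysltr1 lie lower with oxLDL than untreated in both genotypes, Ptger2 and Ptgir higher, and Ptger1 overlaps between treatments.

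Cysltr1, the receptor of cysteinyl leukotrienes, had 12.1 and 14.1 CPM in oxLDL-treated mutant cells and 23.4 CPM in oxLDL-treated wild-type cells, against 43.4 and 45.9 CPM in untreated mutant cells and 78.2 CPM in untreated wild-type cells. It fell by 1.76 ± 0.10 on the log2 scale with oxLDL (SE; adjusted p = 0.000109). In both treatments the mutant libraries lay below the wild type one, with a change of -0.82 ± 0.10 on the log2 scale, mutant over wild type (SE; adjusted p = 0.0191). The genotype call was lost without mutant untreated 1 (adjusted p = 0.0724), mutant untreated 2 (0.0937) or wild type untreated (0.0999). Receptors of other products were scarce. The thromboxane receptor Tbxa2r and the prostaglandin D2 receptor Ptgdr had 0 counts in all libraries, although Tbxas1 and Hpgds were well expressed, and the leukotriene B4 receptor Ltb4r1 was at most 0.102 CPM. A count of 0 allows up to 0.122 to 0.265 CPM, depending on the library, for counting error only. Ptafr, the PAF receptor, was at 75.3, 75.8 and 118 CPM with oxLDL, against 75.1, 49.6 and 66.6 CPM untreated, in the order mutant 1, mutant 2 and wild type, and did not pass, although the oxLDL libraries were all above the untreated ones (log2 fold change 0.46 ± 0.18, SE; adjusted p = 0.089).

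Of 2 tested transporters Abcc1 rose and Abcc4 fell, and of 5 other tested leukotriene enzymes 1 rose, Ggt5, and 2 fell. The counts here stand beside 19.1% of all tested genes called higher with oxLDL and 21.4% lower. The Abcc4 call (adjusted p = 0.0223) was lost without mutant oxLDL 2 (0.0534), mutant untreated 2 (0.0995), wild type oxLDL (0.0758) or wild type untreated (0.0722). The Ggt5 call (adjusted p = 0.0279) held without mutant oxLDL 2 and was lost without any other library, with adjusted p of 0.0575 to 0.0956, and with the replicate block (adjusted p = 0.0512). Abcc1, which exports leukotriene C4, was at 278, 338 and 509 CPM with oxLDL, against 149, 179 and 188 CPM untreated, and rose by 1.09 ± 0.15 on the log2 scale (SE; adjusted p = 0.00232). Dpep2, a dipeptidase that converts leukotriene D4, fell by 0.86 ± 0.15 (SE; adjusted p = 0.00509). Dpep3, the other that fell, had only 1, 1 and 2 reads with oxLDL, against 5, 7 and 14 untreated, so its fall is uncertain. Of 5 tested breakdown genes 3 rose and none fell. Ptgr1, a reductase that inactivates prostaglandins and leukotriene B4, was at 90.5, 88.1 and 101 CPM with oxLDL, against 32.9, 24.9 and 18.3 CPM untreated, and rose by 1.91 ± 0.20 (SE; adjusted p = 0.000819). The 3 oxLDL libraries were close together and the untreated ones far below. Cbr1, a carbonyl reductase, rose by 0.63 and Zadh2, a prostaglandin reductase, by 0.74 on the log2 scale, the last lost without mutant oxLDL 2 (adjusted p = 0.0558) or mutant untreated 2 (adjusted p = 0.0741). Hpgd, the dehydrogenase that starts prostaglandin breakdown in many tissues, was between 0.487 and 1.85 CPM and did not pass.

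Of the 10 genes, Tbxas1 shared 0.142% of its 75-base stretches with another gene and the other 9 shared none. Exons of genes on the opposite strand overlap those of Alox5ap, Ltc4s, Pla2g7, Ptgs1 and Tbxas1, and those of Ptger2, Ptger4, Lpcat2, Mgll and Dpep2, which also overlaps a gene on its own strand. The kit keeps the strand, but no source used here says whether strand was used in counting.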

How the data were processed

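Polyadenylated RNA was read as 150-base paired ends from 250 ng of total RNA with a stranded kit, per the labels' protocols. Bowtie2 2.1.0 did the alignment and RSEM 1.2.15 the counting, per the submitters' processing notes, which name the build hg19 although the genes are mouse genes. Which build lies behind the counts is therefore not known here. Expected counts from RSEM were deposited, 1 column per library. The authors also deposited a normalised signal, scaled by edgeR's TMM method. Its values were multiples of what 1 read is worth (100% whole, tolerance 1e-06). Reads recovered from it matched the rounded expected counts for 99.89% of genes or more per library and gave 5134 calls for oxLDL across genotypes, as the rounded counts did.

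Expected counts were rounded here. The 12689 genes that passed filterByExpr were tested with the quasi-likelihood test of edgeR (4.0.16, in R 4.3.3), TMM factors and Benjamini-Hochberg adjustment over all of them. Group means, 4 in number, were fitted for oxLDL in the mutant, for genotype within a treatment and for the difference of the oxLDL responses. Genotype and treatment without interaction were fitted for both comparisons across groups. A lone wild type library is taken to spread as the mutant pairs do. CPM are rounded counts over library size and TMM factor. SE is the log2 fold change over the square root of F. In wild type, size was used, from 5 CPM, a 2-fold change and a prior count of 2. A count of 0 was given a floor of 3 counts. DESeq2 1.42.0, limma 3.58.1 on the log2 of the deposited signal plus 0.5, other scaling and filters, and leaving out libraries were alternatives. The 10 genes, the pathway and marker lists and the tests were chosen with earlier results of these data known. From each pathway list up to 3 genes with the smallest p for oxLDL across genotypes and 1 for genotype were named, and any receptor, transporter or breakdown enzyme of the products could be.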

Additional observations from a re-analysis of the deposited data

Results flagged for a closer look

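The oxLDL response of Akr1b8, an aldo-keto reductase, differed between genotypes by edgeR's test of that difference. Akr1b8 was the only gene called of 56 tested pathway genes, where 0.489% of all tested genes were called. Its level was 51.2 and 42.1 CPM in oxLDL-treated mutant cells and 31.4 and 30.7 CPM in untreated mutant cells, and 116 CPM in oxLDL-treated wild-type cells and 13.8 CPM in untreated wild-type cells. The oxLDL change in the mutant minus that in wild type was -2.48 ± 0.22 on the log2 scale (SE; adjusted p = 0.0172). The call was lost without mutant untreated 1 (adjusted p = 0.069) or mutant untreated 2 (adjusted p = 0.0654). Pancreatic transcripts were present in mutant oxLDL 1, mutant oxLDL 2 and wild type untreated, and cannot be told apart from this difference.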

How the results depend on the processing

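The 6 genes called for oxLDL across genotypes numbered 6 with each other tool, scaling, filter or model and 5 to 6 when libraries were left out. For the mutant they numbered 5 with DESeq2 and 4 to 6 when libraries were left out. Replicate numbers are shared by few samples. The difference between mutant replicates 1 and 2 had a correlation of 0.204 between the treatments, over 12689 genes. With only 2 pairs, that does not settle whether same-numbered samples were paired. With the replicate block the 10 genes gave 6 calls in the mutant (4942 of all genes) and 6 across genotypes (4765 of all genes). Genotype across treatments gave 2 calls with DESeq2 and 0 to 2 without a library; in untreated cells 1 with DESeq2, 3 without the filter on low counts, 1 with limma and 0 to 2 without a library; in oxLDL-treated cells 1 with DESeq2, 1 without the filter and 0 to 1 without a library. Over all genes, genotype across treatments called 514, against 1500 with DESeq2, 1387 without the filter, 1181 from 4 group means and 5 to 871 without a library. For untreated cells it called 896, against 2435 without the filter and 93 to 1950 without a library. For oxLDL-treated cells it called 61, against 393 with DESeq2, 974 without the filter, 99 with limma and 10 to 629 without a library. For the difference of responses it called 62, against 221, 546 and 23 to 282. For oxLDL in the mutant 4515 became 2598 without mutant untreated 2. Pathway genes called for genotype numbered 6, against 10 with DESeq2, 12 without the filter and 11 from 4 group means. Directions changed only for uncalled values. Leaving out libraries, log2 ranges were -0.061 to 1.14 for Ltc4s and -0.094 to 0.13 for Ptges with oxLDL in the mutant; -0.37 to 0.11 for Ptgs1 and -0.17 to 0.14 for Tbxas1 by genotype across treatments; -0.017 to 0.22 for Ptgs1, -0.68 to 1.57 for Ptgs2 and -0.0075 to 0.22 for Ptges by genotype with oxLDL; and, for the difference of responses, -0.13 to 0.13 for Alox5ap, -0.45 to 0.75 for Ltc4s, -2.14 to 0.12 for Ptgs2, -0.21 to 0.14 for Hpgds and -0.10 to 0.72 for Pla2g7. Alox5ap was also 0.0034 without the filter and 0.0092 with limma. The cause was not tested. Low counts limit Ptgs2, Ltc4s, Ptges and Alox5, at 12 to 130 reads a library.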

Other observations

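The cytochrome P450 and epoxide hydrolase branch of arachidonic acid metabolism was measured with 7 genes. With oxLDL across genotypes 1 rose and 1 fell, beside 19.1% and 21.4% of all tested genes. Cyp2j6, an arachidonic acid epoxygenase relative, was at 40.1 and 34.5 CPM in oxLDL-treated mutant cells and 21.9 CPM in oxLDL-treated wild-type cells, against 20.3 and 14.1 CPM in untreated mutant cells and 7.52 CPM in untreated wild-type cells. It rose by 1.25 ± 0.17 on the log2 scale (SE; adjusted p = 0.00219) and was higher in the mutant by 0.96 ± 0.19 (SE; adjusted p = 0.048). Cyp4f16, of which 10.1% of 75-base stretches occur in other genes, is uncertain and passed with an adjusted p of 0.0436, above 0.05 in each fit that left out a library. Ephx1, the microsomal epoxide hydrolase, was at 38.4 and 30.8 CPM in oxLDL-treated mutant cells against 16.2 CPM in oxLDL-treated wild-type cells, and at 44.5 and 37.1 CPM in untreated mutant cells against 13.9 CPM in untreated wild-type cells. It was higher in the mutant by 1.32 ± 0.17 (SE; adjusted p = 0.0236), with no change with oxLDL passing the test. The Cyp2j6 genotype call held without mutant oxLDL 2 and was lost without any other library, with adjusted p of 0.0546 to 0.236. That of Ephx1 was lost without mutant untreated 1 (adjusted p = 0.0634), mutant untreated 2 (0.103) or wild type untreated (0.0999).

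Of 6 lipoxygenases other than Alox5, only Alox8 was tested. Alox8 had 2.72 and 2.77 CPM in oxLDL-treated mutant cells and 3.26 CPM in oxLDL-treated wild-type cells, against 3.97 and 4.24 CPM in untreated mutant cells and 2.81 CPM in untreated wild-type cells. Those ranges overlapped, and it did not pass (log2 fold change -0.32 ± 0.25, SE; adjusted p = 0.352). Alox12, Alox12b and Alox15 were at most 0.176 CPM in any library, Aloxe3 at most 0.529 CPM, and Alox12e had 0 counts. Fpr2, a receptor shared by lipoxin and peptide ligands, had 1.01 and 1.49 CPM in oxLDL-treated mutant cells and 0.831 CPM in oxLDL-treated wild-type cells, against 41.0 and 66.1 CPM in untreated mutant cells and 119 CPM in untreated wild-type cells. It fell by 5.93 ± 0.39 on the log2 scale (SE; adjusted p = 0.000172). Other genes hold 20.9% of its 75-base stretches, so its count is uncertain.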
